A study of Arabidopsis thaliana with 3 samples.

Results

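AFC1 (AT3G53570), AFC2 (AT4G24740) and AFC3 (AT4G32660) are the Arabidopsis members of the LAMMER kinases, named for a conserved sequence motif in their kinase domain. They were chosen by gene identifier, and all their listed splicing events were taken. These were 35 of the 62909 events in the deposited table, in 3 of its 14496 genes. The study, titled for divergence of splicing between duplicated genes, sequenced 3 libraries of 1 group: total RNA of untreated wild-type Arabidopsis (ecotype Col-0), from pools of the first true leaf of plants kept under long days. Nothing in the labels tells separate plantings from repeat preparations of 1 pool, so each p-value over libraries covers a spread that may be technical.

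LAMMER kinases, called CLK kinases in animals, phosphorylate the arginine- and serine-rich tails of SR proteins. SR proteins bind pre-mRNA and act in the choice of splice sites, and phosphorylation changes their location and their contacts with other splicing factors. AFC2 binds and phosphorylates Arabidopsis SR proteins in vitro. The kinases are therefore regulators of splicing whose own transcripts are spliced.

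The events in the table are read counts for an alternative form and for the other reads, and the level of an event is its alternative reads in percent of both. At neighbouring exons this is a share of the reads of 1 junction. How reads of a retained intron were counted is not defined in the labels, so levels of introns of unlike length may not compare directly. The labels do not explain the codes for event classes: IR was read as a retained intron, ALTA and ALTD as shifted acceptors and donors, SKIP as skipped exons and CRIN as an intron inside an exon. Events of the classes SKIP and CRIN in 1 gene carry the same total, so those levels are shares of gene-wide reads. Each listed event had at least 1 alternative read in every library, and an intron that is not listed cannot be told from one below that limit. The labels do not state whether strand was kept. The libraries held 34587113, 33141594 and 62624801 reads over 46303 junctions. The leaf genes RBCS1A (Rubisco small subunit), RCA (Rubisco activase) and CA1 (carbonic anhydrase) reached a mean of 10002, 3669 and 1509 RPM at their median junction, RPM being reads scaled to the total junction reads of the library.

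All 3 kinases share 1 gene structure. The annotated models have 12 exons and 11 introns, with the start codon in exon 1 and the stop codon in exon 12, so every intron lies in the coding region. Exons 3, 4, 5, 6, 7, 9 and 10 have the same length in all 3 genes (27, 154, 49, 115, 92, 65 and 98 nt). The codons of the LAMMER motif lie in exon 10 in each gene, beginning at codon 348 of AFC1, 329 of AFC2 and 301 of AFC3. The encoded proteins have 467, 427 and 400 residues, with 72.2% identity over aligned residues for AFC1 and AFC2, 65% for AFC1 and AFC3 and 62.7% for AFC2 and AFC3. AFC1 lies on the reverse strand of chromosome 3 (chr3:19861177-19864588), AFC2 on the reverse strand of chromosome 4 (chr4:12754489-12757866) and AFC3 on the forward strand of the same chromosome (chr4:15756018-15759314). Coordinates are those of TAIR10.1, whose nuclear positions match the TAIR10 build of the files.

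The introns with the largest tested differences in retention are those numbered 3 and 7, retained in AFC3 and almost fully spliced in AFC2. They are shown from RefSeq TAIR10.1 on the strand of the gene, 5′ to 3′, and capitals mark the first stop codon in the frame of the preceding exons. Intron 3 of AFC3 (chr4:15757020-15757111) meets such a stop at its base 3, and intron 3 of AFC2 (chr4:12756457-12756539) at its base 36. Intron 7 lies at chr4:15758026-15758154 in AFC3 and at chr4:12755606-12755690 in AFC2.
AFC3 intron 3: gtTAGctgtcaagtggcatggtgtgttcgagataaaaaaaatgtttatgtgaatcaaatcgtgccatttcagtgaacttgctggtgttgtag
AFC2 intron 3: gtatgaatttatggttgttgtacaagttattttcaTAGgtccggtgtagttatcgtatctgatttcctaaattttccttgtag
AFC3 intron 7: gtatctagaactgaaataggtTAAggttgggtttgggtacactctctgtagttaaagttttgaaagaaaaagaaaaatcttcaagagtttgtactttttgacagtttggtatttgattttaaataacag
AFC2 intron 7: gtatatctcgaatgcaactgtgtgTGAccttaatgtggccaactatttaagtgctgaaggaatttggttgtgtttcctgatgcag

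The 3 genes differed in transcript abundance as read from junctions. The median listed junction of AFC2 had 10.3, 8.6 and 10.2 RPM in replicates 1, 2 and 3, that of AFC3 had 6.29, 5.17 and 5.04, and that of AFC1 had 3.24, 3.11 and 2.63. The order AFC2, AFC3, AFC1 held for these medians in every library without overlap. Single junctions did overlap, with means over libraries from 7.47 to 11.7 RPM in AFC2 and from 4.62 to 8.76 RPM in AFC3. The reads of a junction include its alternative reads. Within a library AFC2 exceeded AFC3 by 1.77 ± 0.214 times and AFC3 exceeded AFC1 by 1.84 ± 0.152 times (mean ± SD, n = 3). AFC2 stood at percentile 74 of listed genes by this measure, AFC3 at 59.1 and AFC1 at 40.5. The values rest on 11 listed junctions of AFC2, 6 of AFC3 and 5 of AFC1, and in whole leaves fewer expressing cells and less RNA per cell cannot be told apart. The number of listed events followed the same order, with 17 in AFC2, 10 in AFC3 and 8 in AFC1.

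Retained introns (class IR) made up 22 of the 35 events. AFC2 had all 11 of its introns listed, AFC3 had 6 and AFC1 had 5. A mean level of 10% or more was reached by 6 introns of AFC2, 4 of AFC3 and 1 of AFC1. Together these were 11 of 22 (50%), against 28.7% of the 43194 retained introns of nuclear genes. Among retained introns with at least 10 alternative reads in every library they were 11 of 12, and there the share over all genes was 54.4%. In genes with few reads this minimum itself selects high levels. The median listed junction in replicate 2 had 103 reads in AFC1 and 172 in AFC3. Deeper genes pass the minimum at lower levels, so these shares are not like for like.

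**Figure D1:**
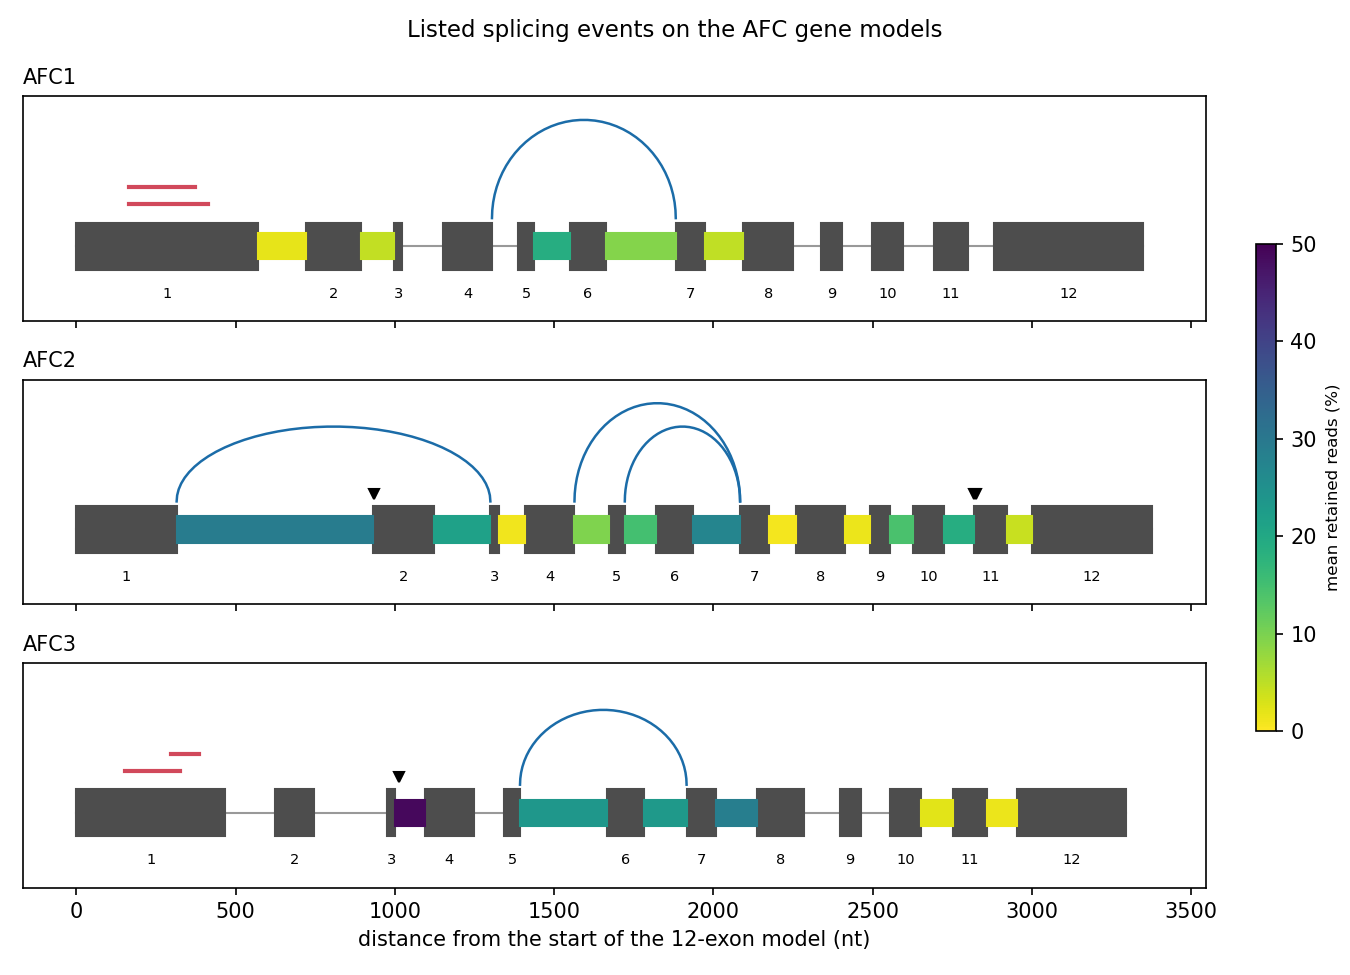
The 12-exon models of AFC1, AFC2 and AFC3 are drawn to scale by distance from the start of the model, with exons as numbered grey boxes. Coloured bars are listed retained introns by mean level, blue arcs are exon skips, red lines are introns inside exon 1 and triangles are shifted splice sites; retention is highest at intron 3 of AFC3 (49%).

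Intron 3 of AFC3 was the most retained intron of the family. Its level was 43.5% in replicate 1, 55.7% in replicate 2 and 47.7% in replicate 3 (49% ± 6.18, 433 retained reads of 892). The exact binomial 95% intervals were 37.6% to 49.7%, 49.1% to 62.1% and 42.6% to 52.8%, and cover counting error only. The same intron of AFC2 stood at 0.599%, 1.4% and 1.25%, and that of AFC1 is not listed. All 3 AFC3 values lay far above all 3 AFC2 values. The difference of log2 odds of retention, AFC2 minus AFC3, was -6.35 (SE 0.35, lower in AFC2 in 3 of 3 libraries; limma adjusted p = 0.00131). Counts for the AFC2 side are small, with 13 retained reads in all.

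The same junction of AFC3 also used a second donor, 20 nt into intron 3. It is shown here with the 20 added bases in capitals, at chr4:15757008-15757051 on the forward strand.
AFC3 exon 3 donor: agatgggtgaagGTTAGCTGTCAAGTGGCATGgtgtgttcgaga
Its level was 10.7%, 2.53% and 5.73% in replicates 1, 2 and 3 (6.32% ± 4.12), highest in the library with the least retention of intron 3 and lowest in the one with the most. Both shares are taken of the same junction total. The 20 added bases hold the in-frame stop of the retained intron. In both forms the reading frame from the annotated start ends after 80 codons, upstream of the LAMMER codons.

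Intron 7 separated the family in the same direction. In AFC3 it was retained at 38.1%, 20.6% and 28.1% (28.9% ± 8.78), in AFC1 at 2.73%, 4.85% and 6.67% (4.75% ± 1.97) and in AFC2 at 0.852%, 0.662% and 1.4% (0.97% ± 0.381). The ranges of the 3 genes did not overlap. AFC2 minus AFC3 was -5.21 on the log2 odds scale (SE 0.41; limma adjusted p = 0.00174), and AFC1 minus AFC2 was 2.25 (SE 0.39; limma adjusted p = 0.00965). The AFC1 call rests on 19 and 13 retained reads and was lost without replicate 3 (limma adjusted p = 0.0527). Intron 7 of AFC1 and AFC3 were not aligned at the same codon and were not tested against each other.

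Introns 5 and 6 enclose exon 6 and were retained in every member. Intron 5 had 18.8% ± 1.86 in AFC1 (20.5%, 16.8% and 18.9%), 15% ± 3.14 in AFC2 (11.5%, 16.1% and 17.5%) and 23.5% ± 3.96 in AFC3 (27.7%, 19.9% and 22.9%). The ranges of AFC1 overlap those of both other genes, and no difference at intron 5 passed the test (limma adjusted p = 0.421, 0.388 and 0.172). An antisense transcript annotated on the reverse strand, AT4G08705 (chr4:15757389-15757707), covers all 273 nt of intron 5 of AFC3. Reads from it could not be told from retained reads, and its part in that value was not tested. Intron 5 of AFC1 was the leading event of that gene, with 87 retained reads.

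The donor of intron 5 has the same 9 bases in all 3 genes. It is shown with the last 3 exon bases first and the first 2 intron bases in capitals, and beside it the donors of intron 6.
AFC1 intron 5 donor: attGTaagt
AFC2 intron 5 donor: attGTaagt
AFC3 intron 5 donor: attGTaagt
AFC1 intron 6 donor: catGTgtgt
AFC2 intron 6 donor: catGTgtgt
AFC3 intron 6 donor: catGTctgt
Scored against the base frequencies of all annotated introns, the intron 5 donor was at percentile 51.4. The intron 6 donor was lower, at percentile 23.7 in AFC1 and AFC2 and 10.9 in AFC3. AFC1 and AFC2 thus share both donors.

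Intron 6 was retained at 27.2% ± 2.66 in AFC2 (26.4%, 30.2% and 25%), at 23.1% ± 0.526 in AFC3 (22.7%, 23.7% and 23%) and at 9.37% ± 5.36 in AFC1 (5.36%, 15.5% and 7.3%). AFC1 was below both others in every library. Its difference on the log2 odds scale was -1.93 against AFC2 (SE 0.42; limma adjusted p = 0.0191) and -1.63 against AFC3 (SE 0.45; limma adjusted p = 0.0366), both resting on 31 retained reads of AFC1. Both calls were lost without replicate 1 (limma adjusted p = 0.0634 and 0.118) and without replicate 3 (limma adjusted p = 0.0867 and 0.147). AFC2 and AFC3 differed by 0.30 (SE 0.34), which did not pass (limma adjusted p = 0.498).

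**Figure D2:**
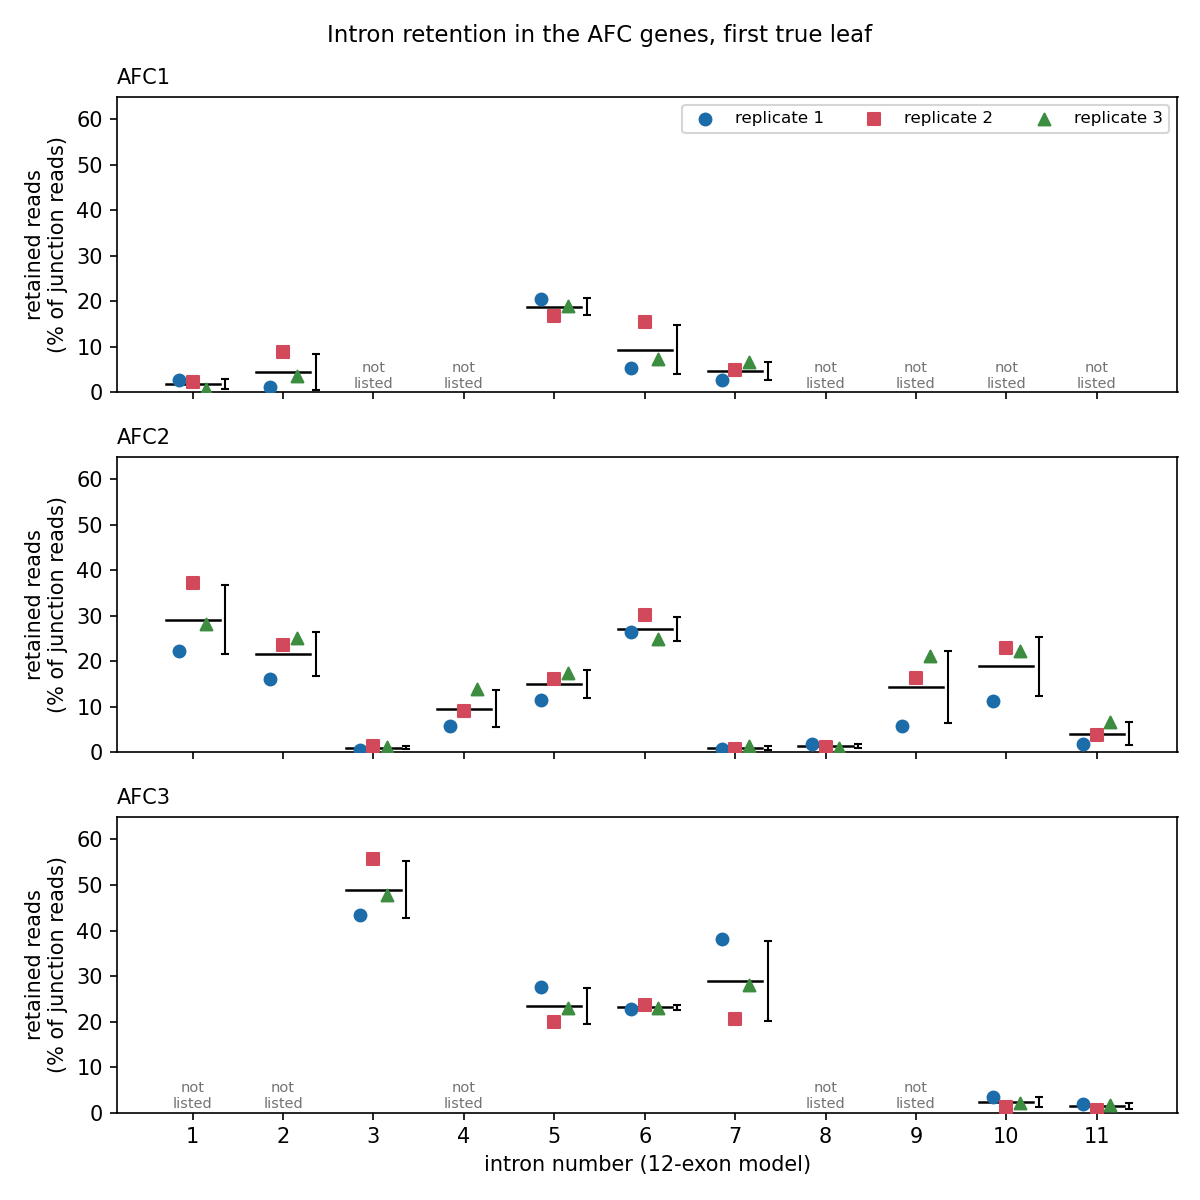
Retained reads in percent of junction reads are plotted for each of the 11 introns of AFC1, AFC2 and AFC3, with a point per library, a bar at the mean and the SD over the 3 libraries beside it. Introns 5 and 6 are retained in all 3 genes, intron 3 reaches 49% in AFC3 alone among the listed values, and AFC2 has further retained introns at both ends of the gene.

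AFC2 retained introns at both ends of the gene as well. Intron 1, 617 nt long and the longest of the family (chr4:12756935-12757551), was its leading event at 22.3%, 37.2% and 28.2% (29.2% ± 7.49). Intron 2 had 16.1%, 23.6% and 25.1% (21.6% ± 4.8), while intron 2 of AFC1 had 1.2%, 8.82% and 3.53%. AFC1 was lower in all libraries, by -2.81 on the log2 odds scale (SE 0.52; limma adjusted p = 0.0117), a call lost without replicate 3 (limma adjusted p = 0.0559). The donor of AFC2 intron 2 scored at percentile 3.1 of annotated donors and that of AFC1 at percentile 26. The acceptor of AFC2 intron 2 was at percentile 97. Donors of the most retained introns scored higher, at 70.8 for AFC3 intron 3, 76.2 for AFC2 intron 1 and 76.5 for AFC3 intron 7. Those of the almost fully spliced introns 3 and 7 of AFC2 were at 93 and 92. Whether site scores go with retention was not tested.

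At the 3′ end, intron 10 of AFC2 was retained at 11.4%, 23% and 22.3% (18.9% ± 6.47) and intron 10 of AFC3 at 3.41%, 1.27% and 2.1%. AFC2 exceeded AFC3 by 3.21 (SE 0.58; limma adjusted p = 0.0113), a call lost without replicate 3 (limma adjusted p = 0.0523). Intron 9 of AFC2, only 71 nt long, had 5.85%, 16.3% and 21.2% (14.4% ± 7.82), and intron 9 is listed in neither AFC1 nor AFC3. Introns 9 and 10 of AFC2 (chr4:12755240-12755310 and chr4:12755049-12755141, reverse strand) flank exon 10 with its LAMMER codons. They are printed because they had the smallest adjusted p for a difference between libraries among AFC introns. In addition, intron 10 of AFC2 has low-scoring sites at both ends (donor percentile 3.48, acceptor percentile 13.6). Intron 10 of AFC1, which is not listed, also scored low (15.7 and 19), and that of AFC3 scored 55.8 and 88.5. A relation of these scores to retention was not tested. Capitals mark the first in-frame stop.
AFC2 intron 9: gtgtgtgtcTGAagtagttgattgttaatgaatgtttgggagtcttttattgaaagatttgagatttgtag
AFC2 intron 10: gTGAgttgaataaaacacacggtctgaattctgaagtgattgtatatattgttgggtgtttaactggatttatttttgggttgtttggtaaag
Retention of intron 9 ends the frame after 318 codons, just before the LAMMER codons, and retention of intron 10 after 348 codons, just after them.

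The remaining introns of AFC2 were spliced more fully. Intron 4 had 9.63% ± 4.13 and intron 11 had 4.13% ± 2.48, and introns 3, 7 and 8 lay between 0.97% and 1.39%. In AFC3 introns 10 and 11 had 2.26% ± 1.08 and 1.42% ± 0.682. Intron 11 differed by 1.27 between AFC2 and AFC3 (SE 0.58; limma adjusted p = 0.135) and was higher in AFC2 in 2 of 3 libraries. In AFC1 introns 1 and 2 had 1.86% ± 1.07 and 4.52% ± 3.91.

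Of the 12 comparisons at homologous introns listed in both genes, 7 passed the test, against 47.8% of 4299 such introns over all duplicated gene pairs. Those pairs are each other's best protein match, except that the pairs with AFC3 are not and were added by name. The share over all pairs is therefore not quite like for like. The median absolute difference was 1.78 on the log2 odds scale for the AFC introns and 1.44 over all of them. AFC2 was below AFC3 at 2 of its 3 called introns and above AFC1 at 2 of 3. Under a quasi-binomial model 1 of the 7 stayed below 0.05, intron 3 of AFC2 against AFC3 (adjusted p = 0.0376), and the others had adjusted p from 0.0562 to 0.153. Without replicate 3, limma called 2 of the 12, introns 3 and 7 of AFC2 against AFC3. The 12 comparisons share 3 genes and the same libraries and are not independent.

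**Figure D3:**
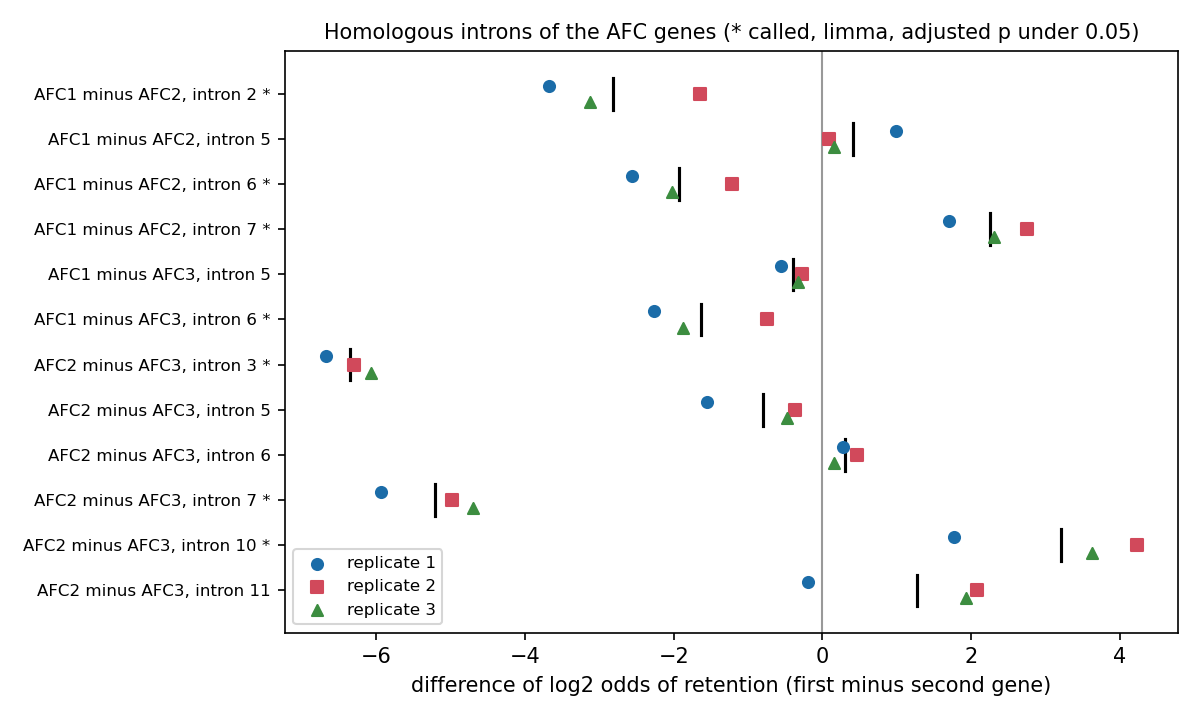
The difference of log2 odds of retention between 2 AFC genes is plotted for each homologous intron listed in both, with a point per library and a bar at the mean. Introns 3 and 7 of AFC2 lie -6.35 and -5.21 below those of AFC3, while the intron 5 points range from -1.55 to 0.99.

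With the annotated start codon, every one of the 11 introns of each model holds a stop in the frame of the preceding exons. For intron 3 of AFC3 the frame ends after 80 of 400 codons, for intron 6 of AFC2 after 214 of 427 and for intron 5 of AFC1 after 198 of 467. These stops lie 914, 650 and 721 nt upstream of the last exon junction. For introns near the 3′ end the stop came late: the frame ends after 348 of 427 codons for intron 10 of AFC2, after 389 for its intron 11 and after 356 of 400 for intron 11 of AFC3. The stop of intron 11 lies downstream of the last remaining junction in both genes. Stops far upstream of the last junction are a known feature of transcripts degraded by nonsense-mediated decay, but stability was not measured here.

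Skipping of exon 6, alone or with exon 5, was listed in all 3 kinases. AFC2 skipped exons 5 and 6 together (chr4:12755932-12756193) in 40, 112 and 102 reads, which is 1.17%, 3.66% and 1.65% of gene-wide reads. Against the spliced reads of the flanking junctions, the level was 10.8%, 34.5% and 17.2% (20.9% ± 12.2). The same 2 exons of AFC1 (chr3:19862863-19863138) were skipped in 3, 9 and 6 reads, or 2.75%, 9.89% and 4.51% of skipping and flanking reads, with only the downstream junction in the table. Replicate 2 was the highest in both genes.

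AFC3 instead skipped exon 6 alone (chr4:15757684-15757798), in 5, 26 and 21 reads and at 2.43%, 12.9% and 5.69% of skipping and flanking reads (7.02% ± 5.38). In AFC2 the skip of exon 6 alone was rare, with 4, 1 and 4 reads and 0.892% ± 0.409. A joint skip is not listed for AFC3, nor a single skip for AFC1. Differences in skipping between the genes were not tested. Loss of both exons removes 164 nt and loss of exon 6 removes 115 nt, and neither is divisible by 3. The frame then ends after 160 codons in AFC2 and 177 in AFC1 for the joint skip, and after 153 codons in AFC3 for exon 6. The 2 exons of AFC2 are printed because this skip is the one shared with AFC1.
AFC2 exon 5: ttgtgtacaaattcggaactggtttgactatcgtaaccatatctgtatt
AFC2 exon 6: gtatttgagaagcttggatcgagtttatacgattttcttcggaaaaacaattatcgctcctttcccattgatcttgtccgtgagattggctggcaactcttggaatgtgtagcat

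AFC2 also skipped exon 2 (chr4:12756745-12756934, 190 nt), which is present in its longest model and absent from another annotated one. The reads were 48, 81 and 106, and the level against flanking reads was 16.4%, 33.4% and 21.2% (23.6% ± 8.79). With the annotated start the frame ends after 49 codons, although the annotation places a later start codon in the model without this exon. Introns 1 and 2, on both sides of the skipped exon, were among the most retained of the gene.

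**Figure D4:**
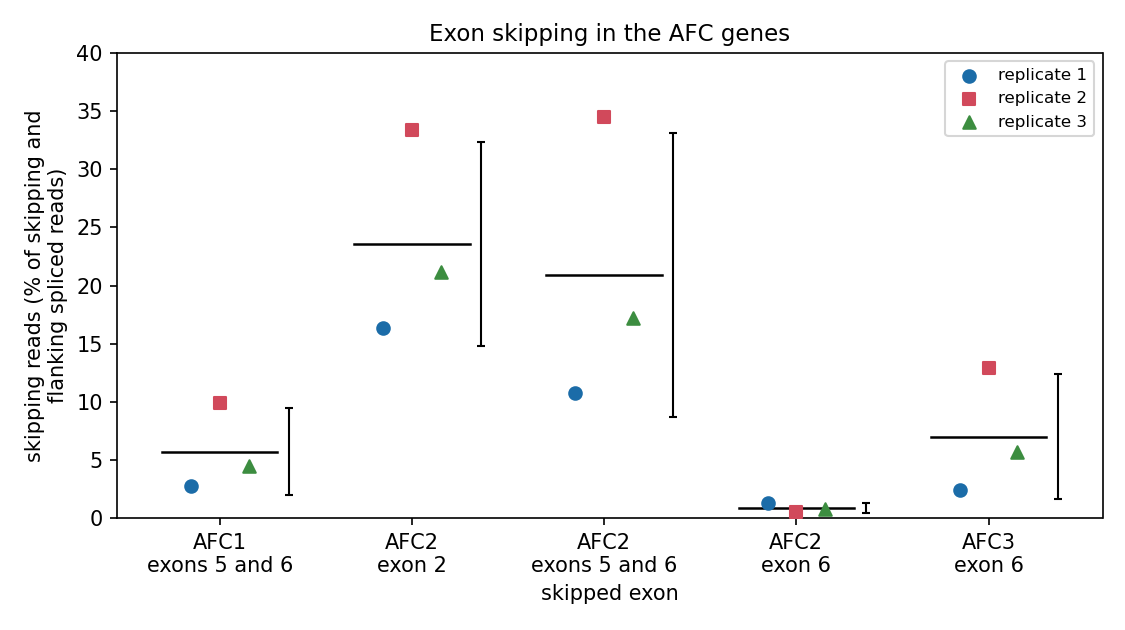
Skipping reads in percent of skipping reads and the mean spliced reads of the flanking junctions are plotted for the 5 listed skips, with a point per library, a bar at the mean and the SD over 3 libraries. Replicate 2 is the highest library in 4 of the 5 skips, and exon 6 alone is skipped at 0.892% in AFC2 and 7.02% in AFC3.

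Exon 1 held introns in AFC1 and AFC3. In AFC1 a 209-nt intron in the 5′ UTR (chr3:19864154-19864362) was removed in 89, 66 and 105 reads, or 6.32%, 5.22% and 4.72% of gene-wide reads (5.42% ± 0.816). The median listed junction of the gene had 112, 103 and 165 reads in the same libraries. A second acceptor further downstream (intron of 248 nt, chr3:19864115-19864362) had 5, 7 and 18 reads and removes the start codon of the 12-exon model. Both are introns of other annotated models. The sites are shown with 10 bases on each side, and capitals mark the first or last 2 bases removed.
AFC1 shared donor: gaaatttgcgGTtagtttat
AFC1 acceptor of the 209-nt intron: tgaatttcAGctctggattt
AFC1 acceptor of the 248-nt intron: tgcaaagcAGtgtgtatcgt
In AFC3 the 2 introns of exon 1 were rarer, with 21 reads for 170 nt and 16 reads for 89 nt over the 3 libraries (0.303% ± 0.126 and 0.227% ± 0.0943 of gene-wide reads). The 89-nt intron removes the start codon of the 12-exon model and is annotated in another one, while the 170-nt intron begins with GT and ends with AG and matches no annotated intron.

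Shifted acceptors were listed for AFC2 only among the 3 genes, and all had few reads. At intron 10 acceptors 11 and 3 nt downstream had 10 and 4 reads in all (0.707% ± 0.123 and 0.284% ± 0.0125). At intron 1 an acceptor 6 nt downstream had 6, 1 and 2 reads (0.886% ± 0.936).

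Several AFC events differed between the 3 libraries by more than read-counting error. The chi-square test of homogeneity called 11 of the 35 AFC events (31.4%), against 10.1% of all events in the table. With at least 10 alternative reads in every library it called 7 of 15, against 19.6% of such events. The AFC calls were 7 retained introns, 3 skips and the shifted donor of AFC3, and by gene 7 in AFC2, 3 in AFC3 and 1 in AFC1. Without replicate 1 a single AFC call remained, the joint skip of AFC2, and without replicate 2 there were 4.

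The 2 strongest were the joint skip of exons 5 and 6 (chi-square adjusted p = 2.14e-11) and intron 9 of AFC2 (adjusted p = 3.03e-08). The skip was highest in replicate 2 and the intron lowest in replicate 1. Introns 10, 4, 1 and 11 of AFC2 were also called (adjusted p = 0.00109, 0.00234, 0.00759 and 0.00917, chi-square test), all of them lowest in replicate 1. The skip of exon 2 of AFC2 was called as well (adjusted p = 0.00908) and was highest in replicate 2. Outside AFC2 the called events were the skip of exon 6 of AFC3 (chi-square adjusted p = 0.00157), its shifted donor (0.0113) and its intron 7 (0.0128), and intron 2 of AFC1 (0.0356). Intron 3 of AFC3 was not called (adjusted p = 0.133).

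Most retained introns of AFC2 ran against the direction of the table. Of the 11, 8 were lowest in replicate 1, whereas over all genes 31.1% of retained introns were lowest and 45.7% highest in that library. Introns of a gene share the same libraries and are not independent. Some had few reads, such as intron 3 of AFC2 with 2, 4 and 7 retained reads. In AFC3, 4 of 6 introns were highest in replicate 1, against 45.7% of all retained introns. Introns 10 and 11 of AFC3, which are among them, had only 14 and 9 retained reads in all. Of called introns with at least 10 alternative reads in every library, over all genes, 57.8% were highest in replicate 1. Intron 7 was the only called intron of AFC3 and was also highest there. Skips were highest in replicate 2 for 4 of 5 AFC events and for 47% of all 995 skips. Without replicate 3, 9 of the 11 AFC calls remained.

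SR proteins, the class of proteins that LAMMER kinases phosphorylate, and other splicing kinases also had retained introns. Which of the listed proteins each AFC kinase acts on was not tested here. Counting introns with at least 10 alternative reads in every library, 15 of 18 listed SR protein genes, 3 of 3 AFC genes, 2 of 2 PRP4 kinase genes (kinases of a spliceosome protein), 2 of 4 CDKG and CDKC genes (cyclin-dependent kinases linked to splicing) and 1 of 5 SRPK genes (the other family of SR protein kinases) had 1 at 10% or more, against 34.2% of all listed nuclear genes. Skips were listed in 3 of 3 AFC genes, 1 of 18 SR protein genes, 1 of 2 PRP4 kinase genes and no SRPK, CDKG or CDKC gene, against 6.14% of all. Both counts need only 1 event per gene, so genes with more introns or more reads have more chances to reach them. The AFC models have 11 introns each, and the lists were not matched for introns or reads. The highest retained introns were intron 3 of SCL33 (AT1G55310, 95.6% ± 0.493) and intron 10 of SR34b (AT4G02430, 93.7% ± 0.906) among SR proteins, intron 1 of PRP4KB (AT1G13350, 87% ± 1.97) and intron 13 of PRP4KA (AT3G25840, 60.4% ± 5.73). CDKC1 (AT5G10270, intron 8) and CDKC2 (AT5G64960, intron 2) reached 21.8% ± 10.7 and 15.4% ± 4.37, and AT2G17530 of the SRPK family 26.8% ± 5.29 at intron 3.

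Among these pathway genes, the retained introns closest to the leading event of each kinase were found by the Euclidean distance of log2 odds over the 3 libraries. For intron 3 of AFC3 they were intron 2 of RS2Z32 (AT3G53500, distance 0.80, 52.7% ± 2.49) and of RS31 (AT3G61860, distance 1.19, 43.1% ± 6.45). For intron 5 of AFC1 they were intron 2 of RS2Z33 (AT2G37340, distance 0.64, 16.9% ± 4.81) and of SR34b (distance 0.73, 23.1% ± 1.45). For intron 1 of AFC2 they were intron 3 of AT2G17530 (distance 0.92) and intron 11 of SR45 (AT1G16610, distance 1.04, 24% ± 1.3).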

How the data were processed

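The authors deposited raw read counts per splicing event and library (alternative reads and other reads), with no normalization. Per the submitters' processing notes, CASAVA 1.8.2, GSNAP and the build TAIR10 were used. How events were classified and how retained reads were counted is not stated there. Junction numbers were matched to RefSeq TAIR10.1 models, taking for each gene the model that the most shifted sites abutted. With these models 97.1% of 13557 shifted sites abutted the numbered intron. The models were chosen on the same sites, so this share is not an independent check. Duplicates were reciprocal best BLASTP hits (blast 2.17.0, E at most 1e-10, 50% of both proteins aligned). AFC1 and AFC2 met this rule. The pairs of AFC3 with AFC1 and with AFC2 did not, and were added by name. Their introns were taken as homologous at the same aligned codon and phase (biopython 1.88, gap opening 11, extension 1).

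Each event's level was tested for homogeneity over the 3 libraries (chi-square), across all 62909 events, which allows for counting error only. Retention at homologous introns was compared by limma 3.58.1 on within-library differences of log2 odds (pseudocount 0.5 read), over 4299 introns. Both used Benjamini-Hochberg adjustment at 0.05. Both were also run on simulated reads, which held counting error only for the chi-square test and a fixed added spread for limma. These runs do not show how the tests behave at the spread of the real libraries. A skip was set against the mean spliced reads of the outermost junctions it spans. Splice sites were scored by base frequencies over 9 donor and 15 acceptor positions of annotated introns.

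All AFC events were described. Other genes were named as the 2 with the highest retained intron per list, and the 2 closest to each leading event. Members and lists were chosen with earlier results of these data known. AFC1, AFC2 and AFC3 are FC1, FC2 and AME3 in RefSeq.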

Additional observations from a re-analysis of the deposited data

How the results depend on the processing

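Some AFC levels moved by over 1.5 times when 1 library was left out. Without replicate 1 the 6-nt acceptor shift of AFC2 went from 0.886% to 0.346% and the donor shift of AFC3 from 6.32% to 4.13%. Without replicate 2 intron 2 of AFC1 went from 4.52% to 2.37%, and the gene-wide levels of the joint skip went from 2.16% to 1.41% in AFC2 and from 0.398% to 0.241% in AFC1, and of the exon 6 skip of AFC3 from 0.734% to 0.418%. The order AFC2, AFC3, AFC1 by junction reads held under both scalings and without each replicate. The count of events that differ between libraries was 2038 to 3760 when 1 replicate was left out, against 6338, and the AFC count was 1 to 9, against 11, lowest without replicate 1. At homologous introns 1272 to 1647 calls were made without 1 replicate, against 2056, and 2 to 7 in AFC, against 7, lowest without replicate 3. A quasi-binomial model, which does not share the spread between introns, called 335, with 1 in AFC (intron 3, AFC2 against AFC3). The minimum of 10 alternative reads in both genes left 646 introns and called 371. It left 4 AFC comparisons and called 0 with limma, none at an unadjusted p under 0.05 either, since the 7 called comparisons involve an intron under that minimum. Depth limits these, since the less retained intron of each called comparison had 13 to 31 retained reads in all. Intron 11 of AFC2 against AFC3 passed without replicate 1 (2.01, limma adjusted p = 0.032), and intron 2 of AFC2 differed between libraries when only events over that minimum were tested (adjusted p = 0.0463). No AFC comparison reversed under these alternatives. The gene comparisons were paired by library in both models. No group comparison exists to pair, since the labels give 1 group.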
